A study of Mus musculus with 147 samples.

Results

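The cells described here were single testicular cells of wild-type mice at postnatal days 12 and 14 (PND12 and PND14) that held at least 100 CPM of Sycp1 and under 100 CPM of Piwil1. There were 804 such cells among the 1177 cells of these ages that passed the quality filter, and among the 13032 deposited cells of the series. CPM is the number of unique molecular identifiers (UMIs, the tags that mark single captured RNA molecules) of a gene per 1000000 UMIs of the cell. A pool is the cells of 1 time-point and 1 replicate (R1 or R2). The 804 cells fell into 79 of PND12 R1, 94 of PND12 R2, 402 of PND14 R1 and 229 of PND14 R2. All animals were offspring of C57BL/6 females and BVSC males, which carry the Blimp1-mVenus and Stella-ECFP reporter transgenes, and every group used here shared this cross. After birth cells were not chosen by these reporters: cells that looked like germ cells were picked singly from dissociated testes. Some libraries carry a DNA content of 2N or 4N in the authors' table of cells. The study's methods also describe staining with a DNA dye to tell ploidy, and sorting before sequencing, without naming the ages. Cells of PND8, PND10, PND30, PND35 and adult wild-type mice of the same cross, in 2 replicates per time-point, served for comparison. The labels give library codes only. By the study's methods the replicates were independent and each PND12 and PND14 replicate came from 1 animal, so each of these pools stands for 1 animal.

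In meiotic prophase a germ cell that has copied its DNA pairs its homologous chromosomes and exchanges strands between them. Chromosomes form protein axes (SYCP2, SYCP3, HORMAD1), SPO11 cuts the DNA at sites marked by PRDM9, and DMC1 coats the cut ends with the help of factors such as MEIOB. SYCP1 joins the axes as part of the synaptonemal complex, and at the fully paired stage, pachytene, PIWIL1 and many genes of later sperm formation come on. Spermatogonia, the mitotic cells that come before meiosis, express Zbtb16, Sall4, Kit and Dmrt1, and STRA8 acts at the switch to meiosis in answer to retinoic acid.

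The promoters of 3 axis and synaptonemal genes are shown because Sycp1 chose the cells and because Sycp3 and Hormad1 differed between cells of the group, as described further on. Each is the window from 250 bases before to 50 after the RefSeq start on GRCm38.p6, 5′ to 3′ in the direction of the gene. Capitals mark 3 motifs searched on both strands: CACGTG (an E-box), GCGGGA (an E2F-type site) and CCTCAG (letters known from promoters that STRA8 occupies). No marked sites overlap.
Sycp1, chr3:102936051-102936350, minus strand: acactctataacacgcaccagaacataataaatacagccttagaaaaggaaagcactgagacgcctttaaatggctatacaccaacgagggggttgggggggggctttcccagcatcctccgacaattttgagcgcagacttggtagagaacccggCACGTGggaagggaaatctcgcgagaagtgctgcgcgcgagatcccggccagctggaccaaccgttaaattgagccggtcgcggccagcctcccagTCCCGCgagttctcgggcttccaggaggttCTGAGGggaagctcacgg
Sycp3, chr10:88459337-88459636, plus strand: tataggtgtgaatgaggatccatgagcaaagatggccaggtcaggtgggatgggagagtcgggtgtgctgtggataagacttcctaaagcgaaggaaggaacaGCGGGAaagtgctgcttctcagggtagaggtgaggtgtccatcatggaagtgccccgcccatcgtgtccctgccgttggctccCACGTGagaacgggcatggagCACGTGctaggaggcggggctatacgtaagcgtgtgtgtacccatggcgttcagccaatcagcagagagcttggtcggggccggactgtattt
Hormad1, chr3:95559427-95559726, plus strand: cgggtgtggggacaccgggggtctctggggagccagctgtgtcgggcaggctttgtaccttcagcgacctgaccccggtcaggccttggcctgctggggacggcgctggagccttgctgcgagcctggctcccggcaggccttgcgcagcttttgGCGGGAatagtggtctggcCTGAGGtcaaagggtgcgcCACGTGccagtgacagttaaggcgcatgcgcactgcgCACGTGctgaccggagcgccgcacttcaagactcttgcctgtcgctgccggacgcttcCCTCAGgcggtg

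Of all 27025 RefSeq promoters of this length, 7.09% held CACGTG, 19.8% held GCGGGA and 26.6% held CCTCAG. The Sycp1 promoter held 1 CACGTG, 1 GCGGGA and 1 CCTCAG. The Sycp3 promoter held 2, 1 and 0, and the Hormad1 promoter 2, 1 and 2, in the same order. A match describes these letters and is not a site of binding. By the GENCODE M21 annotation of mm10, the gene Sycp1 lies at chr3:102818499-102936100 on the minus strand and Sycp3 at chr10:88459569-88473236 on the plus strand. Meiob lies at chr17:24804289-24839788 and Spo11 at chr2:172977700-172993576, both on the plus strand.

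The cells had a median of 239845 UMIs, and each pool summed to between 22893010 and 114390463 UMIs of them. The nearest cell outside the Sycp1 threshold had 99.1 CPM and the nearest inside 102.3 CPM. For Piwil1 the nearest inside had 99.6 CPM. The same 96 well barcodes served every library, and 0 cells had the same counts as another. The comparison class of the rule, germ cells with at least 150 CPM of Ddx4 and under 20 CPM of Sycp1, held 0 cells in all 4 pools. The highest Ddx4 among cells with under 20 CPM of Sycp1 was 78.7 CPM, and the lowest Sycp1 among the 975 germ cells was 35.9 CPM. The cells are therefore set here against each other, against younger cells under the same rule and against Piwil1-positive cells.

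Among germ cells with at least 150 CPM of Ddx4, which encodes an RNA helicase of the germline, cells meeting the rule made up 96.9% in PND12 R1 (95% Wilson interval 89.3 to 99.1%, 62 of 64 cells) and 45.7% in PND12 R2 (38.7 to 52.9%, 85 of 186). At PND14 the shares were 94.5% in R1 (91.6 to 96.4%, 341 of 361) and 59.6% in R2 (54.5 to 64.5%, 217 of 364). R1 was high and R2 low at both ages, and with 2 pools an age no exact test of age can pass 0.05. The intervals cover counting error only, and the shares depend on which cells were picked. Of the other germ cells nearly all were Piwil1-positive, with 99 Piwil1-positive cells in PND12 R2 and 1 in PND12 R1.

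The name first proposed for these cells was early meiotic prophase, with Sycp1, Sycp3, Meiob and Spo11 as markers, and the 3 markers that the rule did not use were high in a minority of them. Sycp3, the axis gene, ranged from 0 to 1130 CPM with a median of 50.1 CPM, and reached 100 CPM in 280 of 804 cells. Meiob, for a single-strand DNA binding factor of recombination, ranged from 0 to 1220 CPM with a median of 29 CPM, and reached 100 CPM in 203 cells. Spo11, for the break-forming enzyme, ranged from 0 to 1480 CPM with a median of 4.19 CPM, and reached 100 CPM in 12.7% of cells. All 3 reached 100 CPM in 81 cells, and none did in 482 cells. In cells of the same pools that fell into no class, nearly all rich in Sertoli cell RNA, Sycp3 reached 100 CPM in 0.98% and Meiob in 1.96% of cells, at a median of 154714 UMIs.

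Sycp1 itself, used by the rule, had medians of 532, 452, 591 and 811 CPM in PND12 R1, PND12 R2, PND14 R1 and PND14 R2. Median Sycp3 was 27.4, 50.4, 45.4 and 61.8 CPM in the same order of pools. Median Meiob was 43.8, 3.06, 16.7 and 49.9 CPM, and median Spo11 was 0, 1.88, 0 and 15.7 CPM. PND14 R2 was highest of the 4 pools for all of these genes, and the pools overlapped widely cell by cell.

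**Figure D1:**
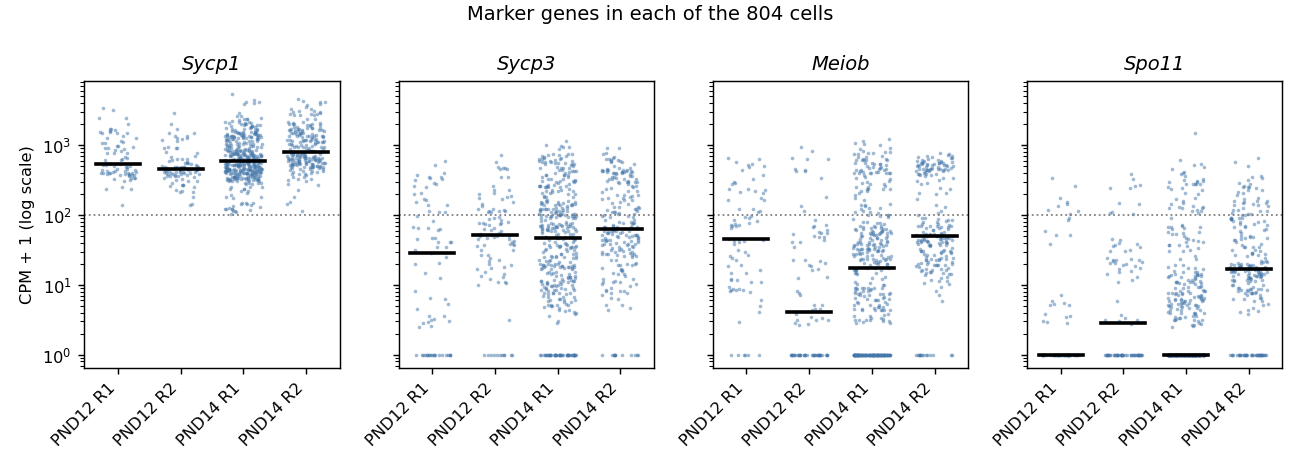
CPM + 1 on a log axis for Sycp1, Sycp3, Meiob and Spo11 in each of the 804 cells, by pool; each point is a cell, black bars are medians and the dotted line is 100 CPM. Sycp1 lies above the line in every cell because it chose the cells, while Meiob lies above it in 203 cells and reaches down to 0 CPM.

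Genes of meiotic entry and of spermatogonia were present in many of the same cells. Stra8 reached 100 CPM in 602 of 804 cells, with a median of 304 CPM, and 377 cells had Stra8 at this level with none of Sycp3, Meiob and Spo11. Kit, the receptor gene of differentiating spermatogonia, reached 100 CPM in 204 cells, and Zbtb16, of undifferentiated spermatogonia, in 156. At least 1 of both reached it in 330 cells, of which 16 also had 100 CPM or more of Meiob. Dazl, for a germ cell RNA binding protein, reached 100 CPM in 798 cells and Ddx4 in 738. Dazl also reached it in 56.9% of cells of the same pools that fell into no class. Of the 804 cells, 99 held under 150 CPM of Ddx4, the mark used here for germ cells. The cells are therefore called by their rule, Sycp1-positive Piwil1-low cells, and not by a stage.

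RNA of Sertoli cells, the somatic cells that surround germ cells in the tubule, accompanied many of them. Summed over 10 Sertoli markers, 379 of 804 cells held 500 CPM or more, with 76 of 79 in PND12 R1, 53 of 94 in PND12 R2, 225 of 402 in PND14 R1 and 25 of 229 in PND14 R2. The summed level over the cells of each pool ran from 329 CPM in PND14 R2 to 1580 CPM in PND12 R1. In cells of no class the same sum was 6460 to 12700 CPM. Clu, abundant in Sertoli cells, had a median of 93.7 CPM. Other somatic RNA was present too. Summed over 10 interstitial, peritubular and Leydig markers, the level was 755 CPM in PND12 R1, 70.9 CPM in PND12 R2, 189 CPM in PND14 R1 and 60.3 CPM in PND14 R2. By Meiob level, 268 of 350 cells under 20 CPM and 47 of 203 at 100 CPM or more held 500 CPM of the list. Sertoli RNA thus moved with low Meiob, and its part in the values was not tested. It also went by library. In 1 library of PND12 R2, 53 of 58 cells were above the mark and 0 had Meiob at 100 CPM. In another of the same pool 0 of 35 cells were above it and 12 had Meiob at 100 CPM. RNA of round spermatid genes was seen in some cells too. Prm1 reached 100 CPM in 13 cells and Tnp2 in 12, all in PND14 R2. Tnp1 reached it in 2 cells of PND12 R2, 14 of PND14 R1 and 9 of PND14 R2. The source of this RNA was not tested.

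Within PND14 R1 the libraries carry a DNA content, and cells that have copied their DNA hold 4N. Of the 229 cells in the 3 libraries called 2N, 8 had at least 100 CPM of Meiob (3.49%, 95% Wilson interval 1.78 to 6.74%), against 77 of 173 in the 2 libraries called 4N (44.5%, 37.3 to 52%). The Sertoli mark divided the same libraries, with 220 of 229 and 5 of 173 cells above it, and all 10 Sertoli genes were lower in 4N. In PND14 R2 the 1 library called 2N had Meiob at 100 CPM in 24 of 54 cells, with 4 cells above the Sertoli mark, so the low Meiob share of 2N libraries was not seen in that pool. The comparison of 2N and 4N libraries came from 1 pool, and no test was made. The part of any sorting by DNA content in these values was not tested.

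**Figure D2:**
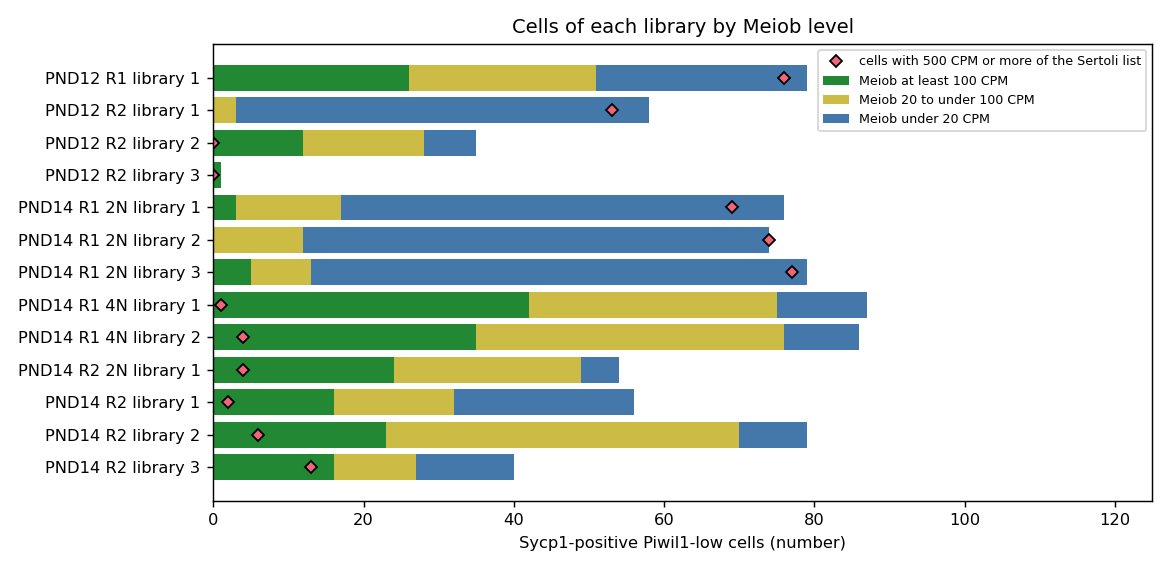
Number of Sycp1-positive Piwil1-low cells in each of the 13 libraries, divided by Meiob level (at least 100 CPM, 20 to under 100 CPM, under 20 CPM); diamonds give the number of cells with 500 CPM or more of the Sertoli list. In PND14 R1 the 2N libraries hold 8 cells of the highest Meiob level against 77 in the 4N libraries, and 220 against 5 cells above the Sertoli mark.

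A gene was taken as higher in 4N when its lowest 4N library was at least 2-fold over its highest 2N library. By this measure 192 of 11583 genes were higher (1.66%) and 622 lower (5.37%). The higher genes held 5 of 8 telomere attachment genes, whose products tie chromosome ends to the nuclear envelope, such as Terb1 (16.2 and 81.2 CPM in 2N and 4N) and Majin (11.9 and 56.4 CPM). They also held 4 of 16 axis genes, such as Hormad1 (111.2 and 428 CPM), and 4 of 16 genes of mitotic division, such as the kinase genes Plk1 (54.5 and 173 CPM) and Aurka (57.1 and 175 CPM). The lower genes held 5 of 20 spermatogonial genes and the Sertoli list, of which Sox9, the Sertoli fate factor gene, had 50.7 and 7.44 CPM. They also held 4 of 7 interstitial, peritubular and Leydig genes, such as Acta2 (76.1 and 2.12 CPM). Outside the lists, genes among those with the largest ratios were H2-Ab1 (2.97 and 63.5 CPM), Gml (14.3 and 206 CPM) and Tesmin (19.2 and 249 CPM). The largest the other way were those of Basp1 (66 and 2.46 CPM), Vim (112.3 and 5.03 CPM) and Tnni3 (141.7 and 8.35 CPM), and Vim is known from Sertoli cells.

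To describe what varied within the group apart from Sertoli RNA, the 425 cells with under 500 CPM of the Sertoli list were divided by Meiob into 156 cells at 100 CPM or more, 187 from 20 to under 100 CPM and 82 under 20 CPM. The division was chosen after the values were seen, Meiob is 1 of the proposed markers, and genes that go with it had to differ, so the values carry no test. PND12 R1 kept 3 such cells and was left out. The highest and lowest Meiob classes held 13 and 12 cells in PND12 R2, 74 and 27 in PND14 R1, and 67 and 42 in PND14 R2. In the other 3 pools (PND12 R2, PND14 R1 and PND14 R2), 604 of 10974 genes with a mean of at least 5 CPM were at least 2-fold higher in every pool (5.5%) and 1153 were lower in every pool (10.5%). In all 804 cells and 4 pools the counts were 352 and 998 of 11558 genes, of which 279 and 436 were shared.

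Of 15 genes of the chromosome axis and synaptonemal complex, 7 were higher and 1 lower in Meiob-high cells. Sycp3 stood at 376, 397 and 378 CPM in Meiob-high cells of PND12 R2, PND14 R1 and PND14 R2, and at 67.7, 92 and 46.9 CPM in Meiob-low cells. The intermediate cells had 50.2, 92.9 and 53.5 CPM of it. Hormad1, which marks unpaired axes, had 839, 780 and 934 CPM against 166, 239 and 212 CPM. Sycp2, the partner of Sycp3, had 591, 571 and 723 CPM against 120.8, 158 and 178 CPM, and Syce3, of the central element, 508, 612 and 660 CPM against 192, 144.3 and 213 CPM. In none of these did the pool values of the 2 classes overlap, but single cells did for Sycp3 and Hormad1. Among all cells of the group, Sertoli-rich ones included, Sycp3 ran from 0 to 1130 CPM in Meiob-high cells. In Meiob-low cells it ran from 0 to 398 CPM. Hormad1 ran from 12.2 to 2590 CPM against 0 to 830 CPM. Rec8, a meiotic cohesin gene, was at 4.30, 18.4 and 2.91 CPM against 30.1, 27.9 and 31.9 CPM, where not every pool differed 2-fold. The listed gene lower in every pool was Trip13, for an ATPase that removes HORMAD proteins from axes, at 64.1, 89.7 and 64.4 CPM against 137.9, 187 and 143.1 CPM.

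Genes of break formation differed among themselves. Spo11 was at 151, 122.5 and 129.7 CPM against 10.1, 17.4 and 16.3 CPM, and it was the 1 gene of 9 that was higher in every pool. Prdm9, for the hotspot histone methyltransferase, was at 35.1, 208 and 52.1 CPM against 1.07, 99.2 and 50.4 CPM, so its classes overlapped between pools. Rec114, of the break machinery, ran lower in Meiob-high cells at 3.22, 5 and 0.775 CPM against 26.7, 10.2 and 7.72 CPM. Over all 804 cells the rank correlation with Meiob was 0.6 for Spo11 (0.34 to 0.68 within pools), 0.25 for Prdm9 (-0.06 to 0.37) and -0.29 for Rec114 (-0.28 to -0.19), as a description of cells that share libraries and depth. For Prdm9 the sign differed between pools.

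Of 25 genes of strand exchange and crossover other than Meiob, 8 were higher and 1 lower. Dmc1, the meiotic recombinase gene, had 170, 298 and 191 CPM against 45.9, 105.1 and 71.7 CPM. Msh4, for a factor that stabilises crossover intermediates, had 51.6, 69.3 and 52.1 CPM against 9.07, 14.3 and 11.1 CPM. Hfm1, a helicase gene of crossover formation, had 196, 198 and 187 CPM against 17.6, 43.7 and 22.7 CPM. Of 8 telomere attachment genes 4 were higher and 0 lower, with Terb1 at 72.7, 170 and 91.7 CPM against 4.53, 24 and 23.3 CPM and Spdya, an activator of CDK2, at 258, 287 and 343 CPM against 44.5, 33.1 and 45.7 CPM. Of 11 genes of unsynapsed chromatin, the kinase gene Atr and the adaptor gene Mdc1 were higher and 0 lower.

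Of 20 spermatogonial genes 11 were lower and 0 higher, and with all 804 cells in 4 pools 5 were lower. Kit had 8.60, 15.4 and 13.8 CPM against 80.3, 94 and 99.1 CPM, with 122.8, 98.8 and 98.7 CPM in the intermediate cells. Zbtb16 had 45.5, 13.8 and 6.20 CPM against 179, 33.5 and 61.2 CPM, and Dmrt1, a factor that holds back meiosis, 77, 70.8 and 40.9 CPM against 248, 230 and 388 CPM. The intermediate cells thus stood with the Meiob-low cells for Kit, as they did for Sycp3. Of 18 replication genes 4 were lower, such as Mcm2 of the replicative helicase at 40.8, 72.2 and 43.2 CPM against 240, 181 and 252 CPM. Of 16 genes of mitotic division 5 were lower and 0 higher, such as the cyclin gene Ccnd1 at 5.01, 52.8 and 27.3 CPM against 88.8, 238 and 165 CPM, but with all cells in 4 pools 1 was lower and 1 higher, and the median log2 ratio turned from -0.19 to 0.24. Stra8 had no common direction, at 150, 438 and 152 CPM against 371, 375 and 481 CPM. Of 12 meiotic entry genes, Ccnb3, a germ cell cyclin gene, was higher at 141.8, 212 and 121.2 CPM against 32, 32.7 and 11.1 CPM, and the retinoic acid receptor genes Rarg and Rxra were lower; with all cells in 4 pools 2 were higher and 0 lower.

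**Figure D3:**
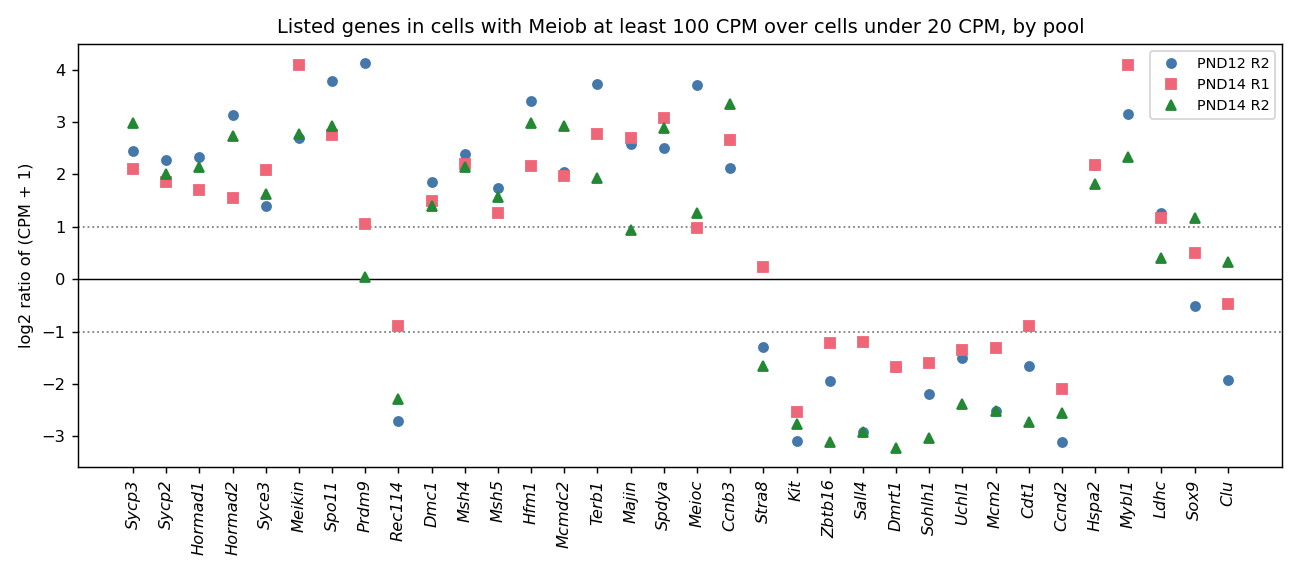
log2 ratio of CPM + 1 in cells with Meiob at least 100 CPM over cells under 20 CPM for selected listed genes, 1 symbol per pool (PND12 R2, PND14 R1, PND14 R2), among cells with under 500 CPM of the Sertoli list; dotted lines are 2-fold. Genes such as Sycp3, Hormad1, Spo11 and Terb1 lie above the upper line in all 3 pools, Kit and Zbtb16 below the lower line, and the pools differ for Prdm9 and Stra8.

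Of 12 genes known from pachytene and later, 6 were higher and 0 lower. Mybl1, a transcription factor gene of pachytene, had 55.5, 53.1 and 39.2 CPM against 5.33, 2.19 and 6.99 CPM, and Hspa2, a testis chaperone gene, 689, 383 and 674 CPM against 152, 84.1 and 191 CPM. Ldhc, the testis lactate dehydrogenase gene, had 590, 57.9 and 241 CPM against 245, 25.2 and 182 CPM, so its pools differed more than its classes. The median log2 ratio was 1.26 over the axis list, 2.02 over the telomere list, 1.19 over the pachytene list and -1.76 over the spermatogonial list, against -0.18 over all genes tested. Of 5 Sertoli genes tested in these cells 0 were higher and 0 lower.

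Outside the lists, the largest smallest-pool ratio was that of Kctd19, a meiotic gene, at 131.8, 96.8 and 123.3 CPM against 4.80, 1.25 and 5.83 CPM. St7, Fsip2, Mlc1, Tktl2, H2-Ab1, Ube2u, Spesp1 and Arhgap33 were among those that followed, with smallest ratios from 6.66 to 10.3. On the other side stood Nipsnap1 at 10.4, 1.92 and 2.03 CPM against 116.3, 56.9 and 35.7 CPM, and Rsu1, Prdm16, Patz1, Mgmt, Wipi1, Aldoc, Ifi27, Arrb2 and Mfap2, with smallest ratios of 5 to 6.06 in favour of Meiob-low cells. Patz1, a zinc finger gene, was at 5.73, 10.4 and 9.98 CPM against 56.3, 63.6 and 61.8 CPM. With all 804 cells in 4 pools, the named higher genes stayed at least 2-fold higher in every pool. Of the named lower genes only Nipsnap1, Patz1 and Aldoc stayed at least 2-fold lower in every pool, and the highest ratio of Arrb2 was 1.02.

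**Figure D4:**
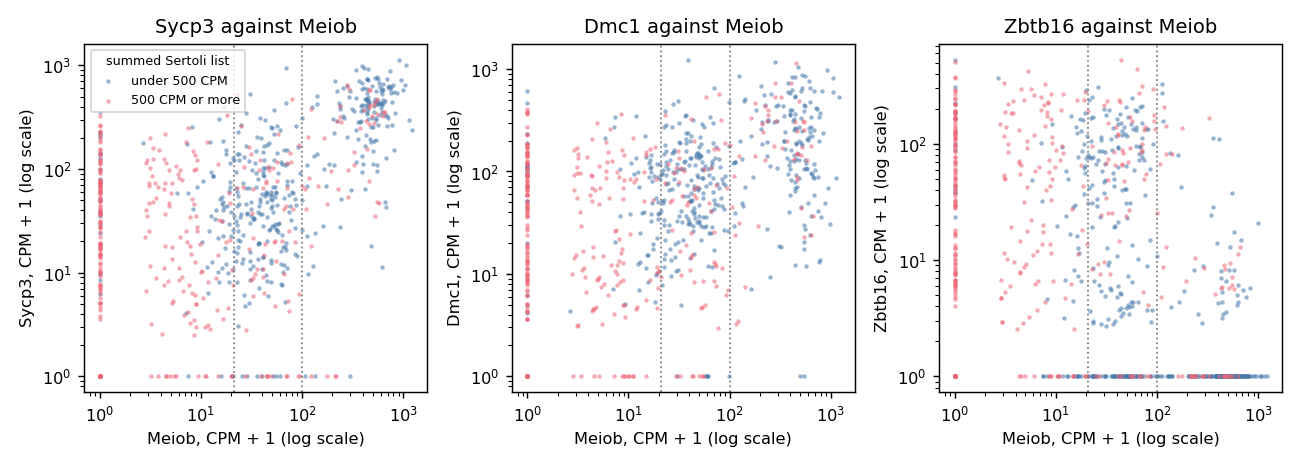
Each of the 804 cells by Meiob (x axis) and Sycp3, Dmc1 or Zbtb16 (y axes), all as CPM + 1 on log axes, coloured by whether the Sertoli list summed to under 500 CPM or to 500 CPM or more; dotted lines are 20 and 100 CPM of Meiob. Sycp3 and Dmc1 reach 100 CPM in 81.3 and 70% of cells with Meiob at 100 CPM or more and in 16 and 22% of cells under 20 CPM, and Zbtb16 in 4.43 and 25.4%.

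Promoters of the higher and lower genes were set beside those of all genes tested. CCTCAG was found in 31.5% of the 454 higher genes with a RefSeq promoter (95% Wilson interval 27.4 to 35.9%), in 22.6% of the 890 lower genes (20 to 25.4%) and in 26.8% of the 8578 tested. GCGGGA was found in 32.8%, 37.3% and 37.1% of them, and CACGTG in 9.47%, 11.3% and 10.9%. The genes were chosen by the division and no test was made, so the shares describe these lists.

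Younger mice show how the cells of PND12 and PND14 differ from those that the same rule takes earlier. It took 698 of the 738 passing cells of PND8 and PND10, and this comparison was chosen after the data had been seen. With sums per pool, 4 pools against 4, edgeR called 6 of 18353 genes higher (0.0327%) and 9 lower (0.049%) at PND12 and PND14 at a false discovery rate of 0.05, and 2745 had an unadjusted p under 0.05. DESeq2 called 742 and 291 genes. Without PND14 R1 or PND8 R1, 0 genes were higher and 0 lower. The counts were 81 and 41 without PND14 R2, 91 and 25 without PND10 R2, 2 and 5 without PND12 R1, 0 and 2 without PND12 R2, 0 and 1 without PND10 R1, and 0 and 5 without PND8 R2.

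Among the genes that rose was Spcs1, of the signal peptidase, with 195, 224, 182 and 265 CPM in PND12 R1, PND12 R2, PND14 R1 and PND14 R2. It had 111.1, 100.3, 99.3 and 126.8 CPM in PND8 R1, PND8 R2, PND10 R1 and PND10 R2 (log2 fold change 1.03 ± 0.15 SE, edgeR adjusted p = 0.0447). Apopt1 and Naxd had log2 fold changes of 1.33 and 0.81. Tsx, a testis gene, was at 5.34 to 27.2 CPM against 1.84 to 2.43 CPM, and Cers2, a ceramide synthase gene, at 24.6 to 39.5 CPM against 5.80 to 11.4 CPM. Dnah7a, an axonemal dynein gene with close copies among which reads could be split, was at 10.1 to 29.1 CPM against 1.23 to 2.73 CPM.

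Among the genes that fell, Plk1 had 91.9, 68.2, 107.7 and 90.1 CPM against 165, 188, 197 and 170 CPM (log2 fold change -0.98 ± 0.15 SE, edgeR adjusted p = 0.0447) and was the only listed gene called. Irak1, a kinase gene of innate signalling, had 58.1 to 83.2 CPM against 145.4 to 200 CPM, and Hist1h2bj, a histone gene with near copies, 33.1 to 41.9 CPM against 79.8 to 112.7 CPM. Nlrc3 (78.9 to 123.7 CPM against 208 to 236 CPM), Arl5c, Glul, Kdm2a, Irgm1 and 2610028E06Rik were the others.

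The meiotic markers did not pass the test. Sycp3 was 65.4, 99.6, 115.1 and 136.1 CPM at PND12 and PND14 against 27.1, 31.4, 37.7 and 59.1 CPM at PND8 and PND10 (log2 fold change 1.48 ± 0.28 SE, edgeR adjusted p = 0.0656). Meiob was 92.3, 66.2, 91.7 and 152 CPM against 29.2, 10.6, 16.3 and 62.2 CPM (1.83 ± 0.48 SE, edgeR adjusted p = 0.109), and Spo11 was 16, 26.4, 27.9 and 46 CPM against 6.12, 4.73, 4.19 and 17.5 CPM (1.91 ± 0.49 SE, edgeR adjusted p = 0.104). Cells with 100 CPM or more of Meiob numbered 11, 2, 5 and 33 in PND8 R1, PND8 R2, PND10 R1 and PND10 R2. Stra8, at 434 ± 54 against 494 ± 23.5 CPM (SD, n = 4 each), did not pass, and neither did Kit or Zbtb16. The median log2 fold change was 0.40 over the axis list and 0.77 over the telomere list, against 0.02 over all genes. Over the Sertoli list it was 1.41, with 0 of 10 genes called.

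Between the ages within the group, edgeR called 0 of 18054 genes higher or lower (0%) at PND14 against PND12, with 2 pools each. An unadjusted p under 0.05 was found for 1236 genes, the smallest adjusted p was 0.704, and DESeq2 called 31 higher and 37 lower. Sycp3 was 115.1 and 136.1 CPM at PND14 against 65.4 and 99.6 CPM at PND12, and Meiob 91.7 and 152 CPM against 92.3 and 66.2 CPM.

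Piwil1-positive cells of the same pools bound the group from the later side. Both classes were cut on Piwil1, so genes that go with it had to differ, and the values carry no test. Among cells under 500 CPM of the Sertoli list, in the 3 pools with at least 10 cells of both classes, 828 of 11414 genes were at least 2-fold higher in the Piwil1-low cells of every pool (7.25%) and 1195 lower (10.5%). The higher ones held 8 of 20 spermatogonial, 5 of 18 replication and 5 of 16 division genes. Sall4, a stem cell factor gene, had 116.3, 39.2 and 75.7 CPM against 37.8, 10.5 and 10.7 CPM in PND12 R2, PND14 R1 and PND14 R2, and Kit 81.1, 70.6 and 78.2 CPM against 39.9, 5.02 and 11.6 CPM. Of 16 pachytene genes 8 were lower, such as Ldhc with 423, 43.4 and 177 CPM against 865, 493 and 873 CPM. Spo11 was lower too, at 52.8, 49.6 and 43.5 CPM against 137.9, 133.9 and 169 CPM, whereas Dmc1 was at 77.6, 177 and 112.7 CPM against 63.8, 123.5 and 66 CPM. Outside the lists Hsd17b7, of cholesterol synthesis, had 92.1, 51.6 and 46.2 CPM against 17.8, 4.45 and 6.66 CPM, and Nsdhl, of the same pathway, 70.1, 48.8 and 43.4 CPM against 15.4, 11.3 and 3.16 CPM. Spag17, an axoneme gene, had 16.9, 1.48 and 10 CPM against 191, 168 and 197 CPM.

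Piwil1-positive cells of PND30, PND35 and adult mice, 1547 cells in 6 pools, gave the widest contrast, in which age and class cannot be told apart. The rule of the group also took 38 to 309 cells in each of these pools, and those cells were not compared here. By edgeR 5331 of 21397 genes were higher in the PND12 and PND14 cells (24.9%) and 8270 lower (38.7%), with a median log2 fold change of -0.31 over all genes. Adult R1 stood apart from the other 5 pools and held 651 CPM of the Sertoli list against 19.4 to 41.2 CPM in them. Without it 7355 genes were higher and 8854 lower. As Piwil1 cut both classes, genes that go with it had to differ, and the calls, counts over lists and fold changes are a description with no p-value.

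Of 20 spermatogonial genes 17 were higher and 2 lower, and of 18 replication genes 12 were higher and 0 lower. Dmrt1 had 232, 309, 264 and 275 CPM against 0.586 to 2.78 CPM in 5 older pools and 52.3 CPM in Adult R1 (log2 fold change 4.37 ± 1.12 SE). Of 9 break formation genes 6 were higher and 1 lower. Prdm9 had 65.3, 14.4, 72.3 and 48 CPM against 0.744 to 1.83 CPM and 22.9 CPM in Adult R1, and Zcwpw1, which reads the marks PRDM9 makes, 214, 196, 259 and 199 CPM against 11.8 to 18.7 CPM and 91.6 CPM. The lower gene was Spo11, at 16, 26.4, 27.9 and 46 CPM against 164 to 206 CPM in all 6 older pools (log2 fold change -3.11 ± 0.38 SE). Of 16 axis genes 5 were higher and 4 lower, and 2 genes of the central element lay apart, Syce2 higher at 409, 422, 455 and 496 CPM against 69.3 to 302 CPM and Syce1 lower at 226, 233, 269 and 301 CPM against 383 to 560 CPM. Sycp3 (104.03 ± 29.8 CPM, SD, n = 4, against 73.9 ± 30.8 CPM, n = 6) and Meiob (100.4 ± 36.2 against 81.5 ± 100.5 CPM) were not called in either direction.

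Of 8 telomere attachment genes 5 were lower and 0 higher, and of 12 meiotic entry genes 7 were higher and 1 lower. Stra8 had 471, 483, 418 and 365 CPM against 0.9 to 9.76 CPM and 105.8 CPM in Adult R1. Of 16 pachytene genes 15 were lower and 1, Taf4b, was higher, and all 9 round spermatid genes were lower. Ccna1, a cyclin gene of late prophase, had 2.01, 6.75, 2.83 and 3.36 CPM against 241 to 305 CPM and 8.08 CPM in Adult R1. The Sertoli list had 7 of 10 genes higher and 0 lower. Outside the lists, the largest differences upward were those of Hes1, a Notch target gene, at 113.5, 119.1, 139.99 and 76.1 CPM against 0.412 to 1.62 CPM and 12.8 CPM in Adult R1, and of Akap17b, Afp, Xlr3c, Bclaf3, Mageb4, Lonrf3, Xlr3b, Smagp and Ddah1, of which Xlr3b and Xlr3c are near copies. The largest downward were Prss21, Dnaic2, Ccdc7a, Slamf7, Ifitm7, Hyal6, Slc25a54, D6Ertd474e, Prss40 and Ccdc7b. Prss21, a testis serine protease gene, had 0, 0.317, 0 and 0.495 CPM against 161 to 217 CPM and 3.36 CPM in Adult R1.

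The X chromosome is silenced in pachytene, when most of it has no partner to pair with. Its genes took 3.48, 2.90, 3.23 and 2.62% of all UMIs in PND12 R1, PND12 R2, PND14 R1 and PND14 R2, and 0.239 to 1.02% in the 6 older pools, with Adult R1 highest. The mean was 3.06 ± 0.375% (SD, n = 4) against 0.454 ± 0.293% (n = 6), a difference of 2.60 percentage points. The Piwil1 cut goes with this stage, so the difference is a description with no test. The groups did not overlap, and without Adult R1 the difference was 2.72 points. Within the same pools the Piwil1-positive cells held 1.33, 1.38 and 0.547% in PND12 R2, PND14 R1 and PND14 R2. Meiob-high cells held 3.31, 2.45, 3.03 and 1.77% and Meiob-low cells 3.68, 3.03, 3.27 and 2.90% in the 4 pools, while cells of PND8 and PND10 held 3.07 to 3.21%. These classes hold Sertoli-rich cells too, with 80.2 to 923 CPM of the Sertoli list in Meiob-high and 902 to 2180 CPM in Meiob-low cells, and the part of that RNA was not tested.

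**Figure D5:**
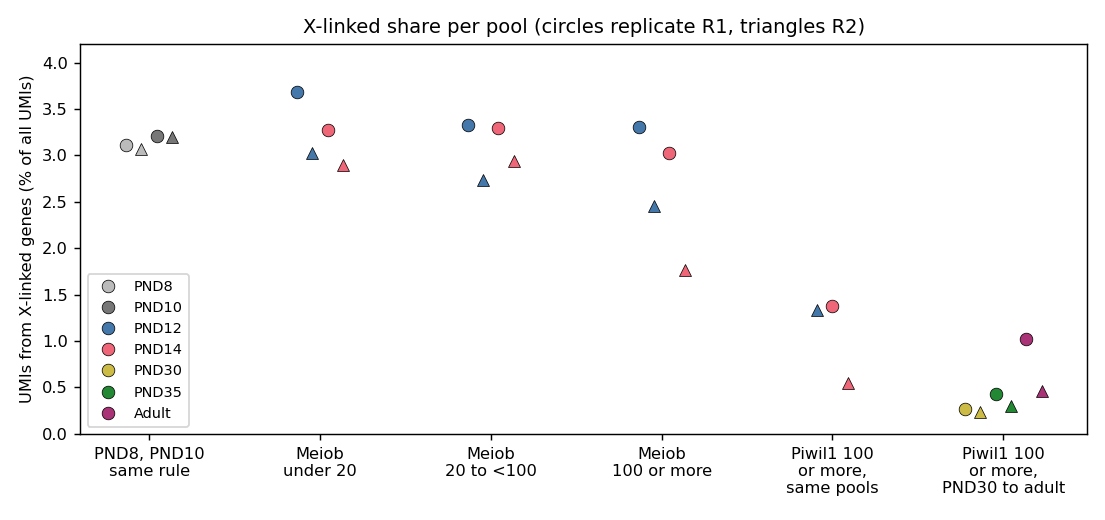
Share of all UMIs from X-linked genes in each pool, in percent, by class; circles are replicate R1 and triangles R2, and colours are ages. The Meiob classes of PND12 and PND14 lie between 1.77 and 3.68%, the Piwil1-positive cells of the same pools between 0.547 and 1.38%, and the older pools at 1.02% or less.

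Single genes of the X lay the same way. Of 18 X-linked genes and autosomal copies, 13 were higher and 5 lower in the PND12 and PND14 cells than in the older pools. Rpl10, an X-linked ribosomal protein gene, had 373, 311, 360 and 296 CPM against 3.04 to 13 CPM and 109.7 CPM in Adult R1, and its autosomal copy Rpl10l had 109.2, 157, 103.4 and 156 CPM against 277 to 331 CPM in all 6. Atrx, a chromatin remodeller gene of the X, had 171, 143.2, 157 and 119.9 CPM against 0.706 to 1.57 CPM and 33.8 CPM in Adult R1. Pdha1 and Pdha2, the X-linked and the autosomal pyruvate dehydrogenase gene, were at 39.1 ± 11.7 against 2.24 ± 4.61 CPM and 58.9 ± 36 against 337 ± 27.9 CPM (SD, n = 4 and n = 6). Within the Sertoli-poor cells of PND12 and PND14, Pdha2 was also higher in Meiob-high cells, at 265, 131.8 and 250 CPM against 79.2, 19.3 and 43 CPM, while Atrx was lower, at 58, 67.9 and 31.9 CPM against 155, 215 and 154 CPM.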

How the data were processed

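Single testicular cells were profiled by STRT-seq, which tags the 3′ ends of polyadenylated RNA with UMIs. The authors used UMI-tools, STAR and featureCounts on mm10 and deposited UMI counts per gene and cell. Age, replicate, library and DNA content come from the table of cells that the authors deposited, since the labels give library codes only. Cells with more than 2000 genes and 10000 to 1000000 UMIs were kept, and doublets were not called. The members and gene lists were chosen with earlier results of these data known. The rule's own comparison class was empty, so the comparison with PND8 and PND10, that with same-pool Piwil1-positive cells, the DNA content comparison and the division by Meiob were added after seeing the data.

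UMIs were summed per pool and class (at least 10 cells) and tested with edgeR 4.0.16 (TMM, filterByExpr, glmQLFTest, Benjamini-Hochberg adjustment, false discovery rate 0.05), with DESeq2 1.42.0 as an alternative. The minimum was not applied when cells with 500 CPM or more of the Sertoli list were left out, where PND12 R1 entered with 3 cells. Divisions without a test used ratios of CPM + 1. Named genes were those of the lists and, per comparison, the 10 largest differences each way among called genes of at least 5 mean log2 CPM whose groups did not overlap; every gene called against PND8 and PND10 is named, some after their values were seen. Symbols were matched to GENCODE M21, which placed 30532 of 31053 genes, 1086 of them on the X. R1 and R2 of 1 age differed by more than counting noise. When run on simulated counts, the fit missed nearly all of the smaller changes against the older cells and most of those between PND14 and PND12. The fit of PND14 against PND12 also called unchanged genes at more than the nominal rate. Some genes that the rule names are not reported here.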

Additional observations from a re-analysis of the deposited data

Results flagged for a closer look

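All results here concern 1 pool, Adult R1, among the 6 pools of Piwil1-positive cells of PND30, PND35 and adult mice. Of 63 groups drawn up, 26 were flagged, each because Adult R1 lay farther from its nearest neighbour than Dixon's 95% value allows. Many of the 63 did not hold this pool, and any with too few pools were passed over. Among groups that held it, only that of Spo11 was not flagged. The groups share pools, and many are genes chosen as the largest differences in these data. They are not independent, so the count cannot be set against a chance rate. X-linked genes took 1.02% of UMIs in Adult R1 against 0.239 to 0.459% in the other 5 pools. Sycp3 had 136.01 CPM against 56.2 to 68.8 CPM, Meiob 283 CPM against 11.1 to 64.3 CPM and Stra8 105.8 CPM against 0.900 to 9.76 CPM. Kit had 26.6 CPM and Zbtb16 11.5 CPM, against at most 2.22 and 1.61 CPM.

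Genes with the largest differences in that comparison also set Adult R1 apart, on the side of the PND12 and PND14 cells. It had 12.8 CPM of Hes1, 14.8 CPM of Akap17b, 20.4 CPM of Afp, 20.4 CPM of Xlr3c, 16.8 CPM of Bclaf3, 35.1 CPM of Mageb4, 19.2 CPM of Lonrf3, 19 CPM of Xlr3b, 22.4 CPM of Smagp and 23.4 CPM of Ddah1, where the other 5 pools held at most 2.59 CPM of each. It had 3.36 CPM of Prss21, 1.43 CPM of Dnaic2, 1.62 CPM of Ccdc7a, 4.65 CPM of Slamf7, 6.02 CPM of Ifitm7, 3.40 CPM of Hyal6, 1.62 CPM of Slc25a54, 0.322 CPM of D6Ertd474e, 1.3 CPM of Prss40 and 4.30 CPM of Ccdc7b, where the others held at least 46.7 CPM of each. The same pool held 651 CPM of the Sertoli list, and the part of that RNA was not tested.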

How the results depend on the processing

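The planned comparison with Sycp1-low germ cells of the same pools and its alternatives could not be run, since 0 cells met the class. No paired analysis was possible because the tested groups were of different ages and so came from different animals; the divisions within pools were compared pool by pool, with no test. Against the older Piwil1-positive cells, thinning every cell to 10000 UMIs gave 5111 lower genes with fewer genes tested, at nearly the same share of them, and leaving out each pool gave 4315 to 7355 higher and 7090 to 8854 lower. Against PND8 and PND10, where 0.0327% of genes tested were higher and 0.049% lower, DESeq2 gave 4.8% higher and 1.88% lower, no filter on low counts 0.412 and 0.161%, and thinning 3.46 and 1.14%. Piwil1 under 50 CPM gave 0% higher and 0.0166% lower, Sycp1 of at least 200 CPM 0.0273% lower, and leaving out cells with 500 CPM of the Sertoli list 0.0115% lower. In the setting without those Sertoli-rich cells, PND12 R1 was a sum of only 3 cells. Leaving out each pool gave 0 to 0.482% higher and 0 to 0.216% lower. For PND14 against PND12, DESeq2 gave 0.272% higher and 0.324% lower and no filter 0.455 and 0.942%, while leaving out each pool gave 0 to 0%. In the division by Meiob, all cells in 4 pools gave 352 higher, and leaving out each pool 824 to 931 higher and 1488 to 2019 lower, with fewer pools left to pass. The X-linked difference was 2.46 to 2.75 percentage points when each pool was left out. Named genes kept their side of the threshold in 627 of 638 recomputations against the older cells and in 279 of 407 against PND8 and PND10. Those counted against PND8 and PND10 include markers that were not called in the main setting, such as Sycp3, Meiob and Spo11. That count is therefore not the share of calls that held. In most of the remaining recomputations against PND8 and PND10, a gene called in the main setting was no longer called. A change of direction was looked for only where a gene was called in either setting, and none was found. Genes called in neither setting may have changed direction. Other thresholds on Sycp1 and Ddx4 left the shares of germ cells within their intervals. In the division by Meiob, 2 lists did not keep their direction with all cells in 4 pools: mitotic division had 0 higher and 5 lower against 1 and 1, and meiotic entry 1 higher and 2 lower against 2 and 0. The causes of the other changes were not tested.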
